A study of Homo sapiens with 4 samples.

Results

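The 74 probe sets of metallothioneins, zinc transporters and MTF1 were examined in zinc-treated U937 cells with and without AML1/ETO. They were chosen by annotated gene symbol (MT1 genes, MT2A, MT3, MT4, SLC30A and SLC39A genes and MTF1) from the 54675 probe sets of the array, or 54613 after 62 control probe sets were left out. They stood for 35 of the 19775 genes that a probe set names alone, with 14 probe sets for 10 metallothionein genes, 26 for 10 SLC30A genes, 31 for 14 SLC39A genes and 3 for MTF1, and 0 of them named several genes.

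Messenger RNA was measured in U937, a human myelomonocytic leukemia cell line. U937-AE cells were a single clone carrying HA-tagged AML1/ETO, the leukemia fusion protein of the t(8;21) translocation, behind the mouse metallothionein promoter, which zinc switches on. U937-Mt cells were a bulk population that carried the empty vector with the same promoter. Both cell lines had been given 100 µM ZnSO4 for 8 h, and arrays of cells without zinc were not analysed here, so the signals are levels in zinc and not inductions by zinc. Each line was represented by 1 pool made from 3 RNA extractions, and 2 array copies (Affymetrix HG-U133 Plus 2.0) were hybridized with it. The spread between the 2 copies is therefore hybridization error, the calls between the lines rest on fold changes and not on a test, and the effect of AML1/ETO and that of choosing a clone cannot be told apart. In bulk RNA such as this, fewer cells with a transcript and less transcript per cell cannot be told apart either.

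Metallothioneins are small cysteine-rich proteins that bind zinc, copper and cadmium. MTF1, the metal-responsive transcription factor, binds zinc through its zinc fingers, attaches to metal response elements upstream of the metallothionein genes and of SLC30A1, and raises their transcription. SLC30A proteins (the ZnT family) carry zinc out of the cytosol, across the plasma membrane or into organelles, and SLC39A proteins (the ZIP family) carry it into the cytosol.

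The promoters of 4 genes were read to show how the elements lie in front of the genes that MTF1 is known for. Each line gives the 250 bases before the annotated start of the gene, 5′ to 3′ on the strand of the gene, from RefSeq on GRCh38.p14. Capitals mark matches to the core of the metal response element, searched on both strands as TGCACNC or TGCGCNC, where N is any base. MT2A lies at chr16:56608334-56608583 on the plus strand, MT1X at chr16:56682220-56682469 on the plus strand, MT1H at chr16:56669564-56669813 on the plus strand and SLC30A1 at chr1:211579162-211579411 on the minus strand.
MT2A: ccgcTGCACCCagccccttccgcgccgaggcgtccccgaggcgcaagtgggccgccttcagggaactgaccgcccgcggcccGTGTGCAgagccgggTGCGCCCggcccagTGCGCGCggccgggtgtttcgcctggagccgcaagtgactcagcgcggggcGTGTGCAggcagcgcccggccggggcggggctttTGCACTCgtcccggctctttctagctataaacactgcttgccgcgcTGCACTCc
MT1X: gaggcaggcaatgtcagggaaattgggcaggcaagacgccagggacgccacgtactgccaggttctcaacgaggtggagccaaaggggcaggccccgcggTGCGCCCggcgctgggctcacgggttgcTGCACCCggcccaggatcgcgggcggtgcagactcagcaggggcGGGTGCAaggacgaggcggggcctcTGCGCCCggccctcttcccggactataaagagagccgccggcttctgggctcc
MT1H: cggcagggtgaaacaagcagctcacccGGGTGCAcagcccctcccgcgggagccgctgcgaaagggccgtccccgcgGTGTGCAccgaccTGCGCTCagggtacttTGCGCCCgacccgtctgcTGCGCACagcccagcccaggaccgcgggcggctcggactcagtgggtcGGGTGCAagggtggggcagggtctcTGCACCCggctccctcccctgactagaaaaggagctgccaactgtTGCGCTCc
SLC30A1: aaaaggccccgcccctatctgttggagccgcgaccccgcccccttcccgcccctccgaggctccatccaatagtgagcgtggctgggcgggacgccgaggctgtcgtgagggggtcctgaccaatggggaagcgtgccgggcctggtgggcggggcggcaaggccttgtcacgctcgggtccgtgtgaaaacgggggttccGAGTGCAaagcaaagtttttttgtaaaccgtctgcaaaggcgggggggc

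The MT1H window held 8 matches, that of MT2A 7, that of MT1X 4 and that of SLC30A1 1, which read on the strand opposite to the gene and began 49 bases before the start. Of 35116 promoters of the same length, 24.8% held at least 1 match, 6.48% at least 2, 0.37% at least 4 and 0.0513% at least 6. A promoter was listed for 26 of the 35 genes, with 35 windows in all. None was listed for MT1E, MT1F, MT1G, MT1HL1, MT1M, MT3, SLC30A8, SLC39A4 or SLC39A14, so these were not searched. All 4 metallothionein windows (MT1H, MT2A, MT1X and MT4) held at least 2 matches, against 2 of 11 SLC30A windows and 0 of 19 SLC39A windows. At least 1 match was in 6 SLC30A and 5 SLC39A windows, and there was none in those of MTF1 and SLC39A11. The core bound by AML1 (TGTGGT or TGCGGT, both strands) occurred in 16.3% of all promoters and in 1 of the 35 windows, that of SLC39A12. A match is a string of letters and not a measured site, and its absence says only that these letters were not in the window.

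**Figure D1:**
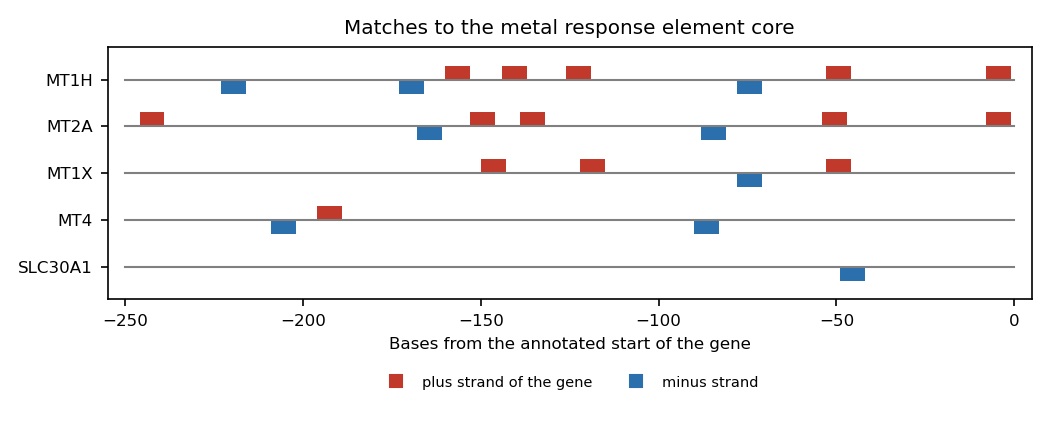
Position of each match to the metal response element core in the 250 bases before the start of 5 genes, with the horizontal axis in bases from the start; red boxes are on the strand of the gene and blue boxes on the other strand. MT1H, with 8 matches, and MT2A, with 7, carry them along the whole window, while SLC30A1 has 1 near the start.

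Signals are the linear values that the array software gave after scaling, and the cell lines are compared within each probe set, since the brightness of different probe sets does not rank their genes. Each signal was raised to the median of its array, the floor, before log2 differences were taken. Floors stood at 119.5 and 129.7 for U937-AE and at 146.8 and 153.6 for U937-Mt, so that a probe set below them everywhere reads -0.27 in log2. A probe set counted as called when the 4 pairs of 1 array from each line all exceeded 1.5-fold in the same direction, and as measured when its mean log2 signal reached the mean floor in at least 1 pool. Whether the arrays of the cell lines lay apart or overlapped was read from signals before the floor, also for probe sets that were not measured. The log2 signals correlated over all probe sets with r = 0.935 between the U937-AE copies, 0.919 between the U937-Mt copies and 0.910 to 0.916 across the cell lines. The ETO gene RUNX1T1 had 1 called probe set, 216831_s_at, at least 8.86-fold higher in U937-AE. Its signals were 1361.5 and 1299.0 in U937-AE cells versus 8.6 and 7.6 in U937-Mt cells. RUNX1T1 216832_at gave 181.9 and 95.5 against 276.6 and 121.2 and was not called. The other RUNX1T1 probe sets were below the floor on all 4 arrays. Of 8 monocytic lineage markers, each read by its brightest probe set, 6 were above the floor on all 4 arrays (CD4, CSF1R, ITGAM, LYZ, MPO and SPI1). In log2, MPO (-3.16), SPI1 (-1.47), ITGAM (-1.11), LYZ (-1.03) and CD86 (-0.84) were called lower in U937-AE. CD86 was below the floor on both U937-AE arrays. CD4 and CSF1R were not called, nor was the dimmer ITGAM probe set 205785_at, at 0.06. FCGR1A was below the floor on all 4 arrays, as were the T cell markers CD3D and CD3E and the epithelial markers EPCAM and KRT18. By their brightest probe sets, the B cell marker CD79A, the T cell marker CD2 and the erythroid marker HBB were above the floor on all 4 arrays. Their part in the results was not tested. For HBB this holds for 1562981_at only, since 211696_x_at and 217232_x_at were below the floor on 1 array each. HBB 209116_x_at and the erythroid marker ALAS2 were below it on all 4.

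Of the 74 probe sets 55 were measured, which covered 29 of the 35 genes. In U937-AE cells 1 of the 74 was called higher, SLC39A4, and 2 were called lower, MT1G and SLC39A11. Over all 54613 probe sets 1.29% were called higher and 2.74% lower, so the shares among the 74 were near the background. The median log2 difference, U937-AE minus U937-Mt, was -0.27 over the 74 and -0.27 over all probe sets. Both are the value that the floor gives to any probe set below it everywhere, so they do not compare the members with the rest. Over measured probe sets it was -0.06 and -0.09, respectively.

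Of the 14 metallothionein probe sets, the 10 with the suffix _x_at were bright in both cell lines. MT2A, a metallothionein made in most tissues, gave the highest signal of all probe sets on each of the 4 arrays through probe set 212185_x_at, where U937-AE reached 36445 and 44423.5 and U937-Mt reached 62176.1 and 55971.8. Both U937-AE signals were below both U937-Mt signals, with a mean difference of 1.47-fold and single comparisons from 1.26- to 1.71-fold, so it was not called. Saturation of these signals was not analysed here.

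Another 9 probe sets with the suffix _x_at behaved in the same range. The suffix marks probe sets with probes that also match other transcripts, and the MT1 genes and MT2A are closely related. These 10 probe sets are therefore not taken as independent readings and may each sum several genes. Which probes do so was not tested. For MT1X, probe set 204326_x_at gave 27216.9 and 33128.2 in U937-AE cells versus 47093.1 and 40782.9 in U937-Mt cells, and 208581_x_at gave 28059.1 and 35174.9 against 49303.8 and 42790.3. For MT1E, 216336_x_at gave 25790.9 and 33980.4 against 45618.8 and 42409.4, and 212859_x_at 23446.2 and 28371.4 against 39728.5 and 34649.8. All 4 of these probe sets were lower on both U937-AE arrays than on either U937-Mt array, by 1.44- to 1.49-fold between means. For MT1F, 217165_x_at gave 33600.3 and 38348.2 against 49897.2 and 45278.4 and 213629_x_at 31752 and 33680.1 against 46722.3 and 42196.3. MT1H (206461_x_at) gave 24279.8 and 29432.3 against 39753.1 and 33704.5. MT1G (204745_x_at) gave 23239.5 and 28391.4 against 36715.8 and 32650.1, and MT1HL1 (211456_x_at), a metallothionein-like locus, 14781.2 and 18911.7 against 25546.6 and 21845.8. These 5 were again lower on both U937-AE arrays, by 1.32- to 1.41-fold.

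Over the 10 _x_at probe sets the difference ran from 1.32- to 1.49-fold, with a median of 1.43-fold lower in U937-AE. Single array comparisons ran from 1.15- to 1.77-fold, 11 of 40 were over 1.5-fold, and none of the 10 probe sets was called. The copies of a pool also differed in these probe sets: the second U937-AE array was 1.06- to 1.32-fold brighter than the first, and the first U937-Mt array 1.08- to 1.18-fold brighter than the second. Without the second U937-AE array, MT1E 216336_x_at, MT1X 208581_x_at and MT2A were called lower, with log2 differences of -0.77, -0.71 and -0.69. A difference of this kind was common among bright probe sets. Of 288 probe sets of other genes with a mean signal at least as high as the dimmest of the 10, 277 were lower in U937-AE, with a median log2 difference of -0.35 and quartiles of -0.44 and -0.21, and 0 were called. The metallothionein median of -0.51 lay below that, and 16 of the 288 were at or below it.

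**Figure D2:**
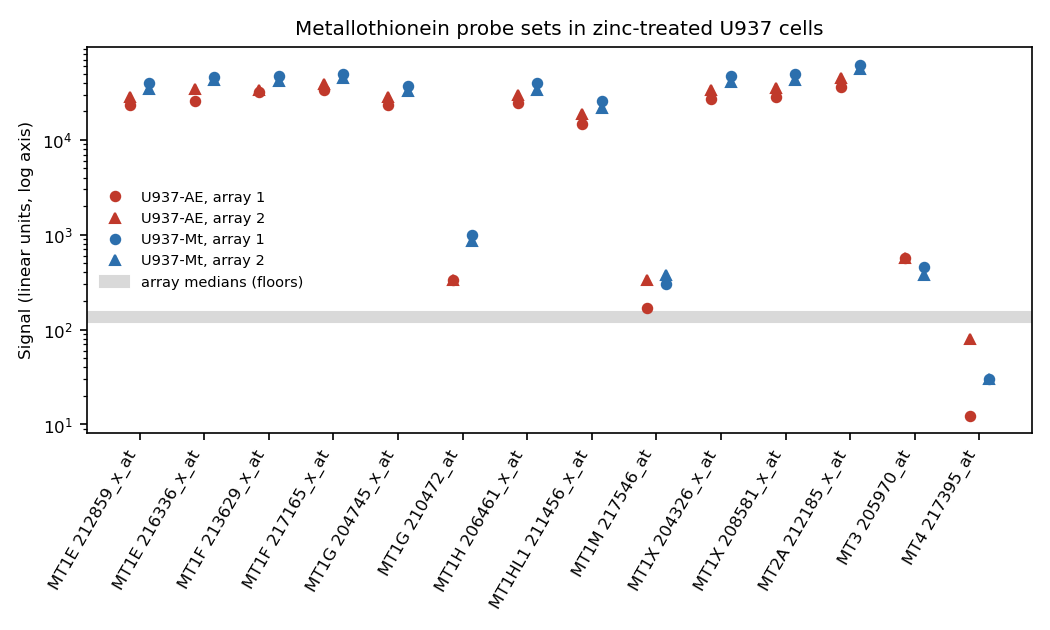
Signal (log axis) of the 14 metallothionein probe sets on the 4 arrays, with circles for the first and triangles for the second array copy of each pool, U937-AE in red and U937-Mt in blue, and the range of the array medians in gray. The 10 _x_at probe sets lie between 14781.2 and 62176.1 with all U937-AE points below the U937-Mt points, and MT1G 210472_at is the one called probe set.

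The size of the metallothionein difference depended on how the arrays were scaled. The 10 _x_at probe sets had a median log2 difference of -0.51 with the deposited signals, -0.24 with the arrays shifted to the same median and -0.17 with scaling to the spike-ins, the bacterial and phage control transcripts, and all 10 were below 0 each time. After quantile normalization, which gives all arrays the same distribution, it was -0.12, with 8 below 0, 1 above 0 (MT1F 217165_x_at at 0.02) and MT2A at 0 because it is the top of every array. Over all measured probe sets the medians were -0.09 with the deposited signals, 0.18 with the same median, 0.25 with the spike-ins and 0.01 after quantile normalization. The 18 spike-in probe sets had a mean log2 difference of -0.34 in the deposited signals.

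**Figure D3:**
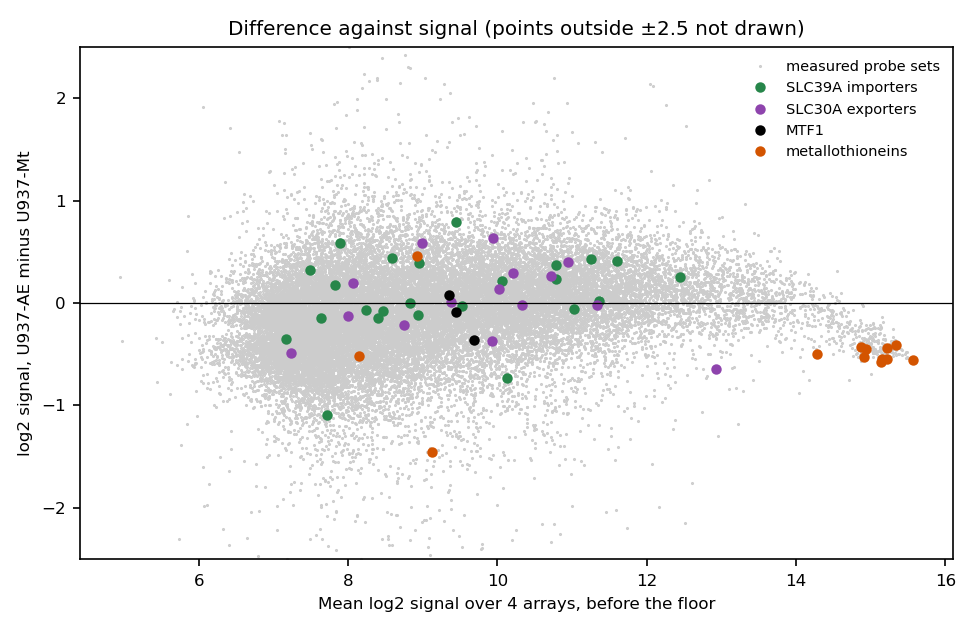
The log2 difference, U937-AE minus U937-Mt, against the mean log2 signal over the 4 arrays, with measured probe sets in gray and the members in color. At the bright end the gray cloud turns below 0, and the 10 bright metallothionein probe sets lie in its lower part at -0.41 to -0.57.

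MT1G had 1 probe set without the _x_at suffix, and it was the called one. Probe set 210472_at gave 335.8 and 335.8 in U937-AE cells versus 996.5 and 855.1 in U937-Mt cells. Both copies of U937-AE lay well below both of U937-Mt, by 2.75-fold between means and 2.55- to 2.97-fold in single comparisons. Its log2 difference was -1.46 with the deposited signals and stayed below 0 under the other scalings, at -1.36 after quantile normalization, -1.19 with the same median and -1.12 with the spike-ins. MT1G 204745_x_at, the bright probe set annotated to the same gene, was 1.35-fold lower and not called, so the 2 readings of MT1G differ in size. The gene lies at chr16:56666730-56668065 on GRCh38.p14.

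MT1M, another member of the MT1 cluster, gave 170.8 and 329.4 in U937-AE cells versus 303.9 and 378.8 in U937-Mt cells through 217546_at. The cell lines overlapped, with single comparisons from 2.22-fold lower to 1.08-fold higher, and without the second U937-AE array it was called lower with a log2 difference of -0.99. MT3, a metallothionein best known from brain, gave 568.3 and 572.3 against 454.1 and 377.5 and was the one metallothionein probe set that was higher on both U937-AE arrays. Its mean was 1.38-fold higher with single comparisons from 1.25- to 1.52-fold, which was not called, and it was called without the first U937-Mt array, with a log2 difference of 0.60, and with the spike-ins, at 0.81. MT4, known from squamous epithelium, was below the floor on all 4 arrays. In all, 11 of the 14 metallothionein probe sets were lower on both U937-AE arrays, where 32.3% of all probe sets were, and 1 was higher, where 17.6% were. Of the 11, 10 are the bright _x_at probe sets, which may read some of the same transcripts. Those percentages include probe sets below the floor. Among the 288 bright probe sets of other genes, 277 had a lower mean in U937-AE.

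MTF1 was measured by 3 probe sets, which did not go one way. Probe set 205322_s_at gave 711.5 and 744.3 in U937-AE cells versus 910.3 and 954.4 in U937-Mt cells, 1.28-fold lower with the arrays apart. Probe set 205323_s_at gave 623.8 and 725.4 against 641.5 and 633.4, and 227150_at gave 562.9 and 806.2 against 718.8 and 714.7. In both of these the cell lines overlapped, and none of the 3 probe sets reached 1.5-fold in any comparison.

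SLC30A1, the plasma membrane exporter ZnT1 and itself a known MTF1 target, gave 6394.2 and 6045.1 in U937-AE cells versus 9959.2 and 9492.9 in U937-Mt cells through 212907_at. The copies lay close together within each pool, and the mean was 1.56-fold lower in U937-AE with single comparisons from 1.48- to 1.65-fold, so 3 of 4 passed 1.5-fold and it was not called. It was called lower after quantile normalization and without the first U937-AE or the second U937-Mt array, with log2 differences of -0.72, -0.69 and -0.68, and also between pool means and by limma with and without the replicate block. With the arrays shifted to the same median (-0.37) or scaled to the spike-ins (-0.30) it was not called. Its dimmer probe set 228181_at gave 866.6 and 846.0 against 1258.0 and 970.5, again lower on both U937-AE arrays, and 242716_at was not measured. The log2 difference of 228181_at was -0.37 with the deposited signals, -0.10 with the same median and -0.02 with the spike-ins. SLC30A1 lies at chr1:211571568-211579161 on GRCh38.p14.

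The other exporters that were measured act on organelles. SLC30A7 (ZnT7), which loads the Golgi with zinc, gave 1306.9 and 1139.1 in U937-AE cells versus 831.1 and 747.7 in U937-Mt cells through 226601_at. It was 1.55-fold higher with comparisons from 1.37- to 1.75-fold, was not called, and passed the call as higher without U937-AE array 2 (0.73 in log2) and without U937-Mt array 1 (0.71), with the same median (0.90), with the spike-ins (0.97), between pool means and by limma with and without the replicate block. The other measured SLC30A7 probe set, 226217_at, was higher on both U937-AE arrays by 1.22-fold. SLC30A5 (ZnT5), a partner of SLC30A6 in the secretory pathway, had 5 measured probe sets, of which 4 were higher on both U937-AE arrays and 220181_x_at overlapped. Its brightest, 218989_x_at, gave 2302.7 and 2222.3 against 1709.0 and 1722.7, a 1.32-fold difference. Its probe set 243166_at gave 719.5 and 539.3 against 429.0 and 400.1, a 1.5-fold difference with 2 of 4 comparisons over 1.5-fold, and it passed the call as higher without U937-AE array 2 (0.80 in log2), with the spike-ins (0.93) and between pool means. SLC30A6 overlapped between the cell lines in all 3 measured probe sets. SLC30A9 overlapped in its bright probe set 202614_at, with 2508.9 and 2610.4 against 2480.6 and 2702.1, and its dimmer 229500_at was 1.14-fold higher with the arrays apart. SLC30A8, the exporter of insulin granules, was near the floor at 104.7 and 143.6 against 200 and 169.2, with 1 U937-AE array below it.

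Over the 26 SLC30A probe sets 15 were measured, for 6 of 10 genes, and 0 were called in either direction. The arrays were apart in 7 with U937-AE higher and 8 with U937-AE lower, against 17.6% and 32.3% of all probe sets, and the median log2 difference of the 15 measured was 0.01. All 7 of the higher ones were measured. Of the 8 lower ones only SLC30A1 212907_at, SLC30A1 228181_at and SLC30A8 1552985_at were, and the rest lay below the floor on all 4 arrays. SLC30A2, SLC30A3, SLC30A4 and SLC30A10 were below the floor on all 4 arrays in every probe set, with signals from 5.7 to 142.8.

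SLC39A4 (ZIP4), the intestinal zinc importer mutated in acrodermatitis enteropathica, was the one member called higher. Probe set 219215_s_at gave 959.8 and 875.2 in U937-AE cells versus 549.3 and 508.9 in U937-Mt cells. Both U937-AE copies were above both U937-Mt copies, by 1.73-fold between means and 1.59- to 1.89-fold in single comparisons. The log2 difference was 0.79 with the deposited signals and 0.85 to 1.14 under the other 3 scalings.

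SLC39A11 (ZIP11), an importer found in Golgi and nucleus, was called lower. Probe set 227046_at gave 837.6 and 896.9 in U937-AE cells versus 1445 and 1438.2 in U937-Mt cells, 1.66-fold lower with comparisons from 1.6- to 1.73-fold. The copies of each pool lay close together and the cell lines apart. The log2 difference was -0.73, and -0.73 after quantile normalization, but it was no longer called with the arrays shifted to the same median (-0.46) or scaled to the spike-ins (-0.39). The gene lies at chr17:72645949-73092688 on GRCh38.p14.

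Several importers were higher on both U937-AE arrays without reaching the call. SLC39A6 (ZIP6, also LIV-1), an estrogen-regulated plasma membrane importer, was higher in all 4 of its probe sets, by 1.29- to 1.35-fold, and its brightest, 202088_at, gave 4077.0 and 3171.9 in U937-AE cells versus 2911.5 and 2510.8 in U937-Mt cells. SLC39A14 (ZIP14), which also carries iron and manganese, gave 2803.9 and 2895.3 against 2221.4 and 2001.1 through 212110_at, 1.35-fold higher, while its 1555434_a_at overlapped. SLC39A8 (ZIP8), an importer induced in activated monocytes, gave 6256.1 and 5901.8 against 4926.7 and 5280.4 through 209267_s_at, 1.19-fold higher. Its readings did not go one way: 219869_s_at, with 2066.7 and 2005.0 against 2034.3 and 2217.4, and the dim 228945_s_at overlapped, and 216504_s_at, with 284.8 and 296.6 against 213.4 and 176.7, was 1.5-fold higher, and it was called without the first U937-Mt array (0.72 in log2), after quantile normalization (0.79), with the same median (0.85) and with the spike-ins (0.93). SLC39A10 (1.16-fold) and both measured SLC39A9 probe sets (1.13- and 1.18-fold) were also higher with the arrays apart.

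The remaining importers overlapped between the cell lines or were dim. SLC39A1, SLC39A3, SLC39A5, SLC39A7 and SLC39A13 overlapped in every measured probe set. SLC39A7 (ZIP7), which releases zinc from the endoplasmic reticulum, gave 532.2 and 415.0 in U937-AE cells versus 551.1 and 471.8 in U937-Mt cells. SLC39A2 gave 55.9 and 255.0 against 363.7 and 382.5 through 220413_at, where 1 U937-AE array lay at its floor. With that array at its floor the mean was 2.14-fold lower and the comparisons ran from 1.43- to 3.20-fold, those with the floored array being bounds, and it was not called. When U937-Mt array 1 was left out it was counted as lower (-1.13 in log2), but only by a tie. There 382.5 against 255.0 is 1.5-fold and not over it, and the other comparison is a bound. It was also called lower when U937-AE array 2 was left out, which leaves the floored array alone and gives only a bound. Between pool means it was called lower as well. SLC39A12 was below the floor on all 4 arrays.

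Over the 31 SLC39A probe sets 24 were measured, for 13 of 14 genes, with 1 called in each direction and a median log2 difference of 0.10 over those measured. The arrays were apart in 12 with U937-AE higher and in 4 with U937-AE lower, where 17.6% and 32.3% of all probe sets were. The 12 include the 4 SLC39A6 probe sets and SLC39A9 216009_at, which was not measured. Of the lower ones, SLC39A5 231667_at and SLC39A12 1553126_a_at were not measured. The direction of small differences depended on the scaling: of the 55 measured members, 40 kept their sign under the 4 scalings and 15 did not. The 15 include MT2A, which was exactly 0 after quantile normalization and below 0 under the other scalings. The median of the 24 SLC39A probe sets ran from 0.10 to 0.44. With the spike-ins, SLC30A5 218989_x_at, SLC39A14 212110_at and 3 of the 4 SLC39A6 probe sets were called higher too, at 0.71 to 0.78.

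**Figure D4:**
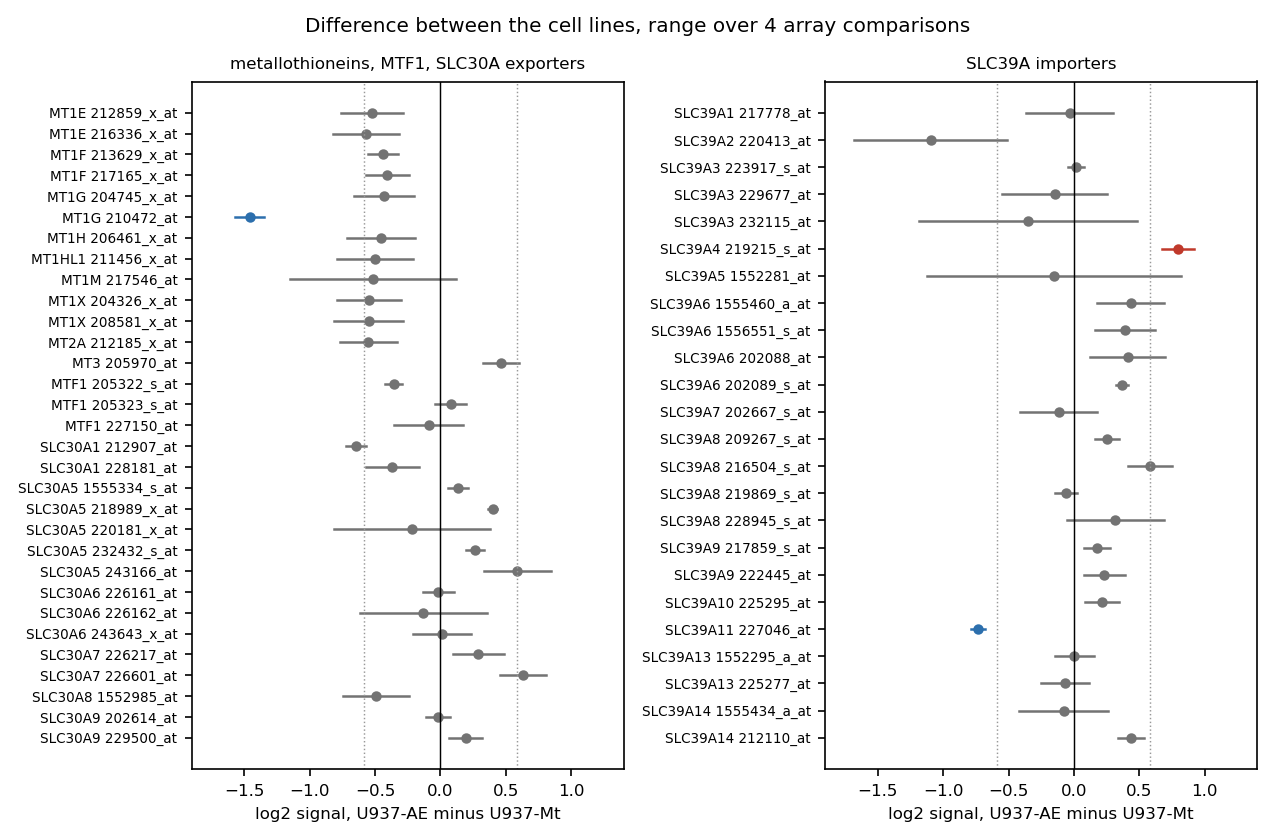
The log2 difference, U937-AE minus U937-Mt, of the 55 measured members (points), with lines for the range over the 4 array comparisons and dotted lines at 1.5-fold; red is called higher, blue called lower and gray not called. SLC39A4 at 0.79, MT1G 210472_at at -1.46 and SLC39A11 at -0.73 are the called ones.

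**Figure D5:**
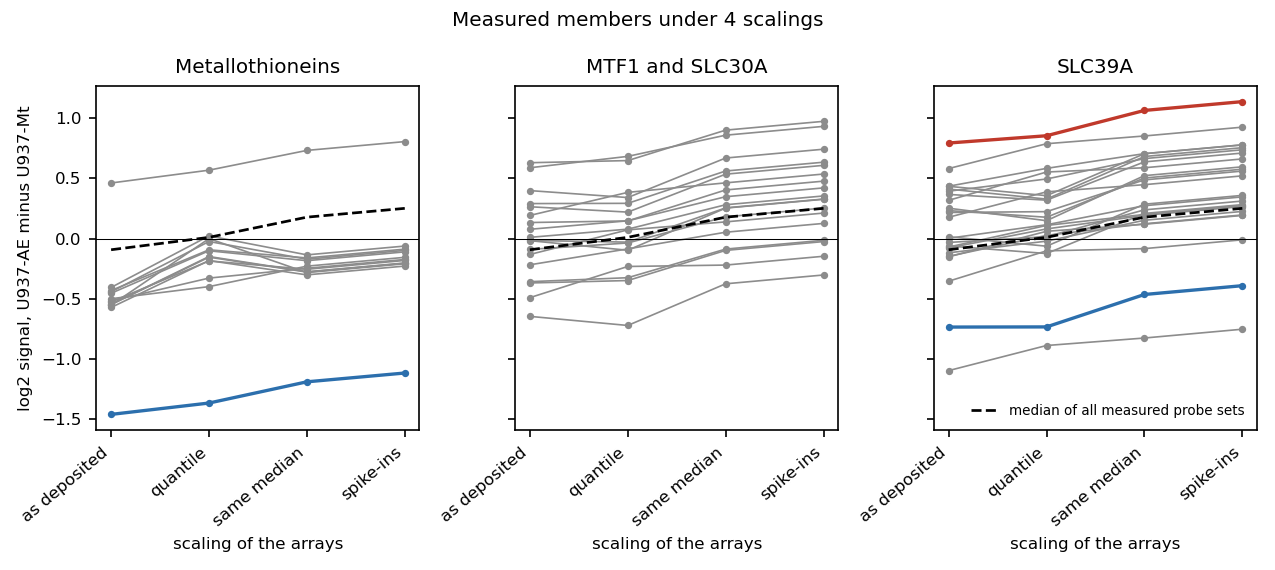
The log2 difference of each measured member under 4 scalings of the arrays, with the 3 called members in color and the median of all measured probe sets as a dashed line. MT1G 210472_at and SLC39A4 keep their side throughout, SLC39A11 moves from -0.73 to -0.39, and the bright metallothioneins move toward 0.

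Genes that handle zinc, copper, iron, magnesium or other metals, or the stress that metals cause, were read from a list of 39, each by its brightest probe set. Of the 35 that matched a probe set naming a single gene, 30 were measured, 1 was called higher and 3 lower, against 1.7% and 4.0% of all 19775 genes. HMOX1, the heme oxygenase that frees iron from heme, gave 8807 and 8887.6 in U937-AE cells versus 2128.3 and 1902.1 in U937-Mt cells, 4.40-fold higher (4.14 to 4.67). GCLM, the modifier subunit of the glutathione-making ligase, gave 1209.7 and 1306.5 against 2697.6 and 2164.2, 1.92-fold lower (1.66 to 2.23). TMEM163, a zinc-binding efflux protein of vesicles, gave 413.8 and 445.1 against 819.7 and 906.9, 2.01-fold lower (1.84 to 2.19). SLC31A2, a copper transporter, gave 192.1 and 165.1 against 316.2 and 431.3, 2.07-fold lower (1.65 to 2.61). Over the 35 genes the arrays lay apart in 10 with U937-AE higher and 12 with U937-AE lower, where 19.8% and 34.5% of all genes did, and the median log2 difference was -0.17 over the 35 and -0.07 over the 30 measured.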

How the data were processed

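The authors scaled each array in the Affymetrix GeneChip Operating Software (version not stated) and deposited 1 linear intensity, the signal, per probe set, with trimmed means (2% cut at each end) of 500.1 on the arrays. Detection calls were not used. Deposited intensities were raised to the array median (the floor at the 50th percentile) and put on the log2 scale. The main calls use no test, because each cell line is 1 pool on 2 array copies, and the p-values of the alternatives below cover the spread between copies only. The labels number the copies as replicates, whereas the methods give them as copies. A probe set was called when all 4 comparisons were over 1.5-fold in the same direction. Every member could be named, and of the other metal-handling genes the called ones. The members and lists were chosen with earlier results of these data known. Symbols came from a platform annotation (41097 probe sets with 1 symbol, 1801 with several, 11777 unnamed), and promoters and gene coordinates from RefSeq, GRCh38.p14.

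Alternatives were other scalings, floors, folds and probe set choices, leaving out each array, limma 3.58.1 in R 4.3.3 (adjusted p under 0.05 and 1.5-fold, over probe sets above the floor on at least 1 array, with p set to 1 for the rest) and the methods' t-test (p under 0.05 and 2-fold). Calculations used Python 3.11.15, numpy 2.4.6, pandas 2.3.3 and scipy 1.17.1, and were tested on simulated data. The depth of an array is not a count, and the number of arrays limits the precision.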

Additional observations from a re-analysis of the deposited data

How the results depend on the processing

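With the deposited signals, 0 metallothionein probe sets were called higher and 1 lower, 1 probe set of the transporters and MTF1 was called in each direction, and 1 other metal-handling gene was called higher and 3 lower. The median log2 differences were -0.51 (metallothioneins) and -0.10 (transporters and MTF1). These medians, and those of the alternatives below, include probe sets below the floor on all 4 arrays, of which 18 are among the 60 of the transporters and MTF1. Over measured probe sets the medians were -0.52 and 0.01. None of the 3 called probe sets changed sign under the alternatives that gave a difference. Of the 55 measured ones, 15 did not keep the same sign across the 4 scalings, among them MT1F 217165_x_at. MT2A is counted among the 15 only because quantile normalization put it at 0, and it was below 0 under the other scalings. MT1G 210472_at was called lower under all alternatives but the adjusted t-test and the count of 1 probe set per gene, where the bright MT1G probe set stands for the gene. Quantile normalization gave a metallothionein median of -0.12 and 2 transporter calls in each direction. With the arrays shifted to the same median the medians were -0.24 and 0.17, with 3 transporter calls higher and 0 lower and 2 other metal-handling genes higher and 1 lower. With the spike-ins they were -0.16 and 0.24, with 1 metallothionein (MT3) and 9 transporter probe sets higher, 0 transporter probe sets lower, and 5 other metal-handling genes higher and 0 lower. Over all probe sets, the calls went from 707 higher and 1496 lower to 950 and 1043 (quantile), 2023 and 667 (same median) and 2850 and 508 (spike-ins).

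No floor and a floor at the 25th percentile each gave 2 transporter calls in each direction. A 2-fold threshold gave 0 transporter calls in either direction and 0 other metal-handling genes lower. A 1.5-fold difference of pool means gave 3 transporter calls in each direction and 3 other metal-handling genes higher. limma, whose p covers the array copies only, called 2 transporter probe sets in each direction and 2 other metal-handling genes higher, with 862 probe sets higher and 1413 lower in all. limma with the replicate block, which treats the array numbers as a pairing, called 2 transporter probe sets in each direction and 2 other metal-handling genes higher, with 920 higher and 1650 lower in all, and the difference between copies correlated with r = 0.0291 across the cell lines over 28882 probe sets, so the arrays share only a number. The methods' t-test called 0 transporter probe sets in either direction and 1 other metal-handling gene lower, and after Benjamini-Hochberg adjustment 0 in any of these lists, the metallothioneins included. Without _x_at and _s_at probe sets, 0 transporter probe sets were called higher, and the transporter median was -0.27, the value of any probe set below the floor everywhere. With 1 probe set per gene, 0 metallothioneins were called lower.

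Leaving out each array in turn gave 0 to 1 metallothionein probe sets higher and 1 to 5 lower, 1 to 3 transporter probe sets higher and 2 lower each time, 1 to 3 other metal-handling genes higher and 3 to 4 lower, and medians of -0.67 to -0.35 (metallothioneins) and -0.22 to 0.017 (transporters and MTF1). Without the first U937-Mt array, the lower call of SLC39A2 was a tie with 1.5-fold. SLC39A4, SLC39A11 and MT1G 210472_at were called each time.

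With 1 pool per cell line no alternative speaks to other cultures or clones. Probes shared among metallothionein copies, and a difference as large as the shifts between scalings, limit what can be said of single MT1 genes.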
